A study of Mus musculus with 8 samples.

Results

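In wild-type (WT) E14 mouse embryonic stem (ES) cells, 3150 contacts between RNA polymerase II sites were each backed by 2 or more ligated read pairs, out of 16191 contacts listed between different sites. They were chosen by read-pair number: each was a row of the pooled WT contact list with different ends and a count of at least 2 paired-end tags (PETs), the ligated read pairs that join the ends. They made up 19.5% of the WT loops and held 10545 of the 23586 PETs in loops, or 44.7%. A loop means here such a pair of sites, its anchors, on 1 chromosome. The series set KLF4-knockout (KO) E14 cells against WT E14 cells, which the labels also call the KLF4 control, and its title places KLF4 in early neural differentiation. Each genotype had 2 RNA-seq libraries and 2 Pol II HiChIP samples. The HiChIP samples of a genotype stand in 1 pooled list, so loops have no replicate check. HiChIP ligates chromatin ends that lie close together and pulls down 1 protein, here RNA polymerase II. The medium given for all 8 samples held 15% fetal bovine serum, 10 ng/mL leukemia inhibitory factor (LIF), the MEK inhibitor PD0325901 at 1 µM and the GSK inhibitor CHIR99021 at 3 µM. A protocol text beside it gives 15% serum and 1000 U/mL LIF with no inhibitor. The letters B and F name the KO RNA-seq libraries, and no source used here says whether they are a single edited clone.

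RNA polymerase II transcribes protein-coding genes and most long non-coding RNAs (lncRNAs). Its contact maps join promoters with enhancers, with other promoters and with the 3′ ends of the same gene, and crowded clusters of active genes show many contacts. In ES cells the factors OCT4 (Pou5f1), SOX2, NANOG and ESRRB keep the undifferentiated state, and KLF4 is a zinc-finger factor of the same network that binds GC-rich sites in promoters and enhancers.

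Gene counts summed to 8448519 in KO B and 8287497 in KO F, and to 9020599 in WT 1 and 9762190 in WT 2. All 6 ES-cell markers reached a CPM (read count scaled to a common library size) of 1 in both WT libraries, with sums of 4069 to 4108 CPM in KO and 4151 to 4731 CPM in WT. Trophoblast markers reached 1 CPM for 0 of 3 genes, and their sums were 0.472 to 1.08 CPM in KO and 0.848 to 1.74 CPM in WT. Fibroblast markers reached it for 3 of 6 genes (sums of 17.8 to 23.1 CPM in KO and 25.3 to 25.7 CPM in WT), primitive endoderm markers for 1 of 5 (5.55 to 6.69 CPM in KO and 6.15 to 6.73 CPM in WT) and early neural markers for 2 of 3 (13.1 to 19.5 CPM in KO and 34.1 to 38.0 CPM in WT). The KO contact list was far deeper than the WT list. It held 401726 PETs in 118475 rows, and the WT list held 35189 PETs in 19914 rows, a ratio of 11.4. Raw PET numbers of the pools are therefore given side by side and are not read as a difference between genotypes. A number in the KO pool is the sum over all KO loops that overlap both anchors of the WT loop. The nearest anchors of a listed loop were 501 bp apart, and 3723 WT rows with the same anchor at both ends are no loops and were left out.

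Most of the 3150 loops stood just inside the threshold. Exactly 2 PETs were counted in 1817 of them (57.7%), 3 PETs in 599, 4 PETs in 263 and 5 PETs in 141. Another 13041 loops had 1 PET and lie just outside. At the other end 117 loops had 10 or more PETs, and the highest count was 47.

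Loops between 5′ ends could be ranked where the genes had a strand listed. Those with the most PETs lay in the major histone gene cluster of chromosome 13, which encodes the replication-dependent core and linker histones. The loop of Malat1 and Neat1 described below had more PETs, but no strand was listed for Neat1. Promoters of 6 genes joined by the histone loops are printed because these loops top the count among loops so ranked. Each run covers 250 bases before to 50 bases after the annotated start (RefSeq, GRCm38.p6, the patch release of the mm10 build), 5′ to 3′ on the gene's own strand. Capitals mark 4 motifs, each searched on both strands. They are TATAAA, the letters where the TBP factor binds, CCAAT, the box bound by NF-Y, ATTTGCAT, the octamer bound by POU factors, and GGGNGTG, the core letters of KLF sites. No matches overlapped in these windows.
H1f2, chr13:23738557-23738856, plus strand: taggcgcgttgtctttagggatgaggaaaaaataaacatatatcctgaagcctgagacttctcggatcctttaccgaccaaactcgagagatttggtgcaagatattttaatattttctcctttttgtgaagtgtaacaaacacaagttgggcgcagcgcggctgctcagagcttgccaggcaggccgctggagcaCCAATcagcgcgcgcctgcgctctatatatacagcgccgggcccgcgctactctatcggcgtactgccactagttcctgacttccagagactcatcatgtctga
H2bc3, chr13:23746484-23746783, plus strand: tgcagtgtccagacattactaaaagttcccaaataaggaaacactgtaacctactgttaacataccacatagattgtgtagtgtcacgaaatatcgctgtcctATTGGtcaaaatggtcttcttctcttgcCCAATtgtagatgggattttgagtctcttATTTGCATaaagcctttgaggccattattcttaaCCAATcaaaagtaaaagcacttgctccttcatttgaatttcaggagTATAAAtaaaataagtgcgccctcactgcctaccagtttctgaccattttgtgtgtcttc
H3c3, chr13:23745472-23745771, minus strand: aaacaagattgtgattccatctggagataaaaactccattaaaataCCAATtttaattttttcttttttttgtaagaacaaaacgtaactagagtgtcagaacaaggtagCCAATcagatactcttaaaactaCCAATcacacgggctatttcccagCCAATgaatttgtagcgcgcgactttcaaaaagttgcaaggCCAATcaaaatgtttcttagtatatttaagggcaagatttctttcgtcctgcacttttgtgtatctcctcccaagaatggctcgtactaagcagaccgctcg
H2ac4, chr13:23750838-23751137, plus strand: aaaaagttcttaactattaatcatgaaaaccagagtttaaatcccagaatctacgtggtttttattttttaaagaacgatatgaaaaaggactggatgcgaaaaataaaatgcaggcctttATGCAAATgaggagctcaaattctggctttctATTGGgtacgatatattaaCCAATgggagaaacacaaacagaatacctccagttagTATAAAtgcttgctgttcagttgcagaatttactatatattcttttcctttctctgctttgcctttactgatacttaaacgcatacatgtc
H3c2, chr13:23752095-23752394, plus strand: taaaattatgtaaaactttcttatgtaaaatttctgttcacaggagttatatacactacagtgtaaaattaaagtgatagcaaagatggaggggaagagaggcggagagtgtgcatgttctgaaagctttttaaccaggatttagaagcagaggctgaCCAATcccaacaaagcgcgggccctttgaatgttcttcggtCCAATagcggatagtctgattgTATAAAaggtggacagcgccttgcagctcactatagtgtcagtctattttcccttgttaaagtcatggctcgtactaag
H2ac7, chr13:23574131-23574430, plus strand: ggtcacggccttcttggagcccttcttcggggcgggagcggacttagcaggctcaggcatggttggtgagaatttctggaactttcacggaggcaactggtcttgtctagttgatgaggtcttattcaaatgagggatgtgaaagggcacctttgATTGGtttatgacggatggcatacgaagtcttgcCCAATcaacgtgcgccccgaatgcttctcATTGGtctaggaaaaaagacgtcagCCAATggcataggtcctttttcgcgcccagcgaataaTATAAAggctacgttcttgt
H1f2, a linker histone gene, had its end at 1 anchor of the loop with 40 PETs, and H2bc3 (an H2B gene) and H3c3 (an H3 gene) shared the other. The next loop, of 39 PETs, joined the H2bc3 and H3c3 anchor to that of H2ac4 (an H2A gene) and H3c2 (an H3 gene). H2ac7, an H2A gene, lay in the anchor with the most loops of all. H2bc3 held 1 TATAAA, 3 CCAAT and 1 ATTTGCAT, and H2ac4 held 1 TATAAA, 2 CCAAT and 1 ATTTGCAT. H3c3 held 5 CCAAT and no other letters searched, H3c2 held 1 TATAAA and 2 CCAAT, H2ac7 held 1 TATAAA and 4 CCAAT, and H1f2 held 1 CCAAT. The letters TATAAA stood in 55.0% of the promoters of the 60 histone genes whose 5′ end lay at a loop anchor, in 8.51% of all 2410 genes with a 5′ end at an anchor, and in 14.2% of the 27025 promoters listed. For CCAAT the shares were 86.7% of the 60 histone genes, 41.4% of the 2410 genes and 37.9% of all promoters. ATTTGCAT stood in 12 of the 60 histone promoters, in 1.83% of the 2410 and in 1.75% of all. The KLF core letters stood in 16.7% of the 60 histone promoters, 37.2% of the 2410 and 29.0% of all. The histone promoters also had a median GC content of 45.7%, against 61.3% for the 2410 genes and 52.7% for all promoters. A match of letters is a description of the window and says nothing of what binds there.

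The loop with the most PETs joined a pair of nuclear lncRNA genes on chromosome 19. Its anchors held the ends of Malat1 (chr19:5794136-5804656) and of Neat1 and Frmd8 (chr19:5841278-5850173), 46.3 kb apart, with 147 PETs in the KO pool and 47 in the WT pool. MALAT1 RNA is kept in nuclear speckles, and NEAT1 RNA builds paraspeckles. The histone loops followed. H1f2 (chr13:23737960-23742958) met H2bc3 and H3c3 (chr13:23743773-23748449) at 5.65 kb with 0 PETs in the KO pool and 40 in the WT pool, and that anchor met H2ac4 and H3c2 (chr13:23750427-23753711) at 5.96 kb with 0 in the KO pool and 39 in the WT pool. In both cases a single KO anchor overlapped both WT anchors, and contacts within that KO anchor are not listed as a loop. The anchor of H2ac7, H2ac8, H2bc7, H2bc8 and H3c4 met that of H2bc6 and H4c4 at 10.4 kb, with 48 PETs in the KO pool and 36 in the WT pool. A histone loop of 2.03 Mb joined H2ac13, H2bc13, H2bc14 and H3c10 to H2bc3 and H3c3, with 16 PETs in the KO pool and 25 in the WT pool.

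Among the other loops of the top 15, Hnrnpab, which encodes an RNA-binding protein of the heterogeneous nuclear ribonucleoprotein family, had both of its ends joined at 7.98 kb by 23 PETs in the KO pool and 32 in the WT pool. Eif4a1, the RNA helicase of translation initiation, had its ends joined by 0 PETs in the KO pool and 28 in the WT pool, and Trim28, a corepressor that silences retroelements, by 0 and 24. Slc3a2, the heavy chain of amino acid transporters, was joined within its body to the anchor it shares with Snhg1, a host gene of small nucleolar RNAs, by 55 PETs in the KO pool and 27 in the WT pool. Rpl28, a ribosomal protein gene, met Tmem238 with 22 PETs in the KO pool and 24 in the WT pool. Eif4a2 and Rfc4 met the predicted lncRNA gene Gm30693 with 0 and 32 PETs. The remaining ones were less well annotated: a chromosome 13 loop of 635.0 kb at Gm40987 (60 PETs in the KO pool and 34 in the WT pool), a chromosome Y loop at Gm52481 (4 and 26) and a chromosome 8 loop of 337.6 kb with no coding or lncRNA gene end (33 and 37). The fifth histone loop of the 15 joined H2ac12 and H2bc12 to H2ac11, H2bc11 and H4c9, with 0 PETs in the KO pool and 31 in the WT pool. In all, the 15 loops had 24 to 47 PETs, 10 spanned under 20 kb, 5 joined histone genes and 9 were found in the KO pool. In each of the other 6 a single KO anchor overlapped both WT anchors. Histone genes are near-identical copies, as may be other repeated families, so reads can be placed on the wrong copy.

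**Figure D1:**
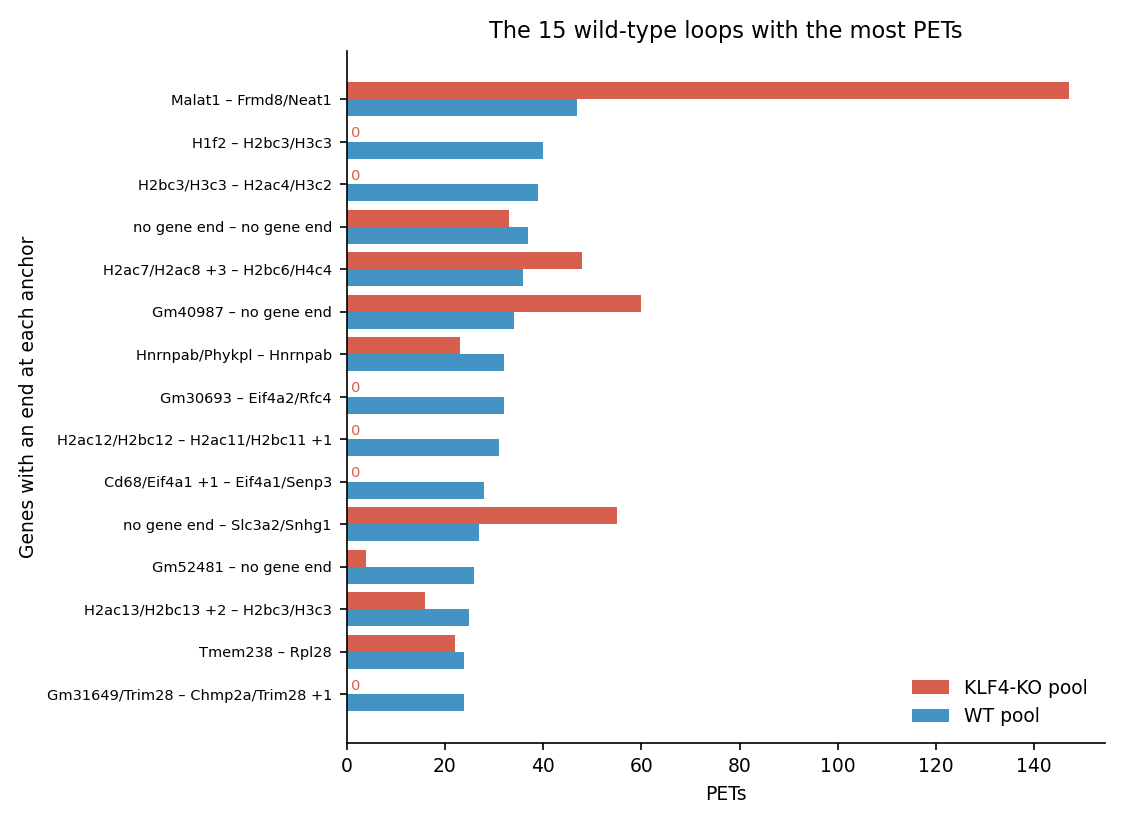
Number of PETs (horizontal axis) in the KO pool (upper bar) and the WT pool (lower bar) for the 15 WT loops with the most PETs, named by the genes with ends at their anchors. The Malat1 to Neat1 loop leads with 147 KO and 47 WT PETs, and 6 loops stand at 0 KO PETs, each with both anchors overlapped by 1 KO anchor.

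Loops with 2 or more PETs were short beside those with 1. Their median span between anchor midpoints was 34.3 kb (middle 50% of loops 12.5 to 104.5 kb), against 420.8 kb for the 13041 loops of 1 PET. Under 20 kb lay 1131 of them (35.9%), between 20 kb and 1 Mb 1951 (61.9%), and over 1 Mb 68 (2.16%). For loops of 1 PET the shares were 4.92%, 57.8% and 37.2% over the same ranges. The span shrank as PETs grew: the median was 53.0 kb at 2 PETs, 27.8 kb at 3, 17.1 kb at 4 to 5, 11.8 kb at 6 to 9 and 7.71 kb at 10 or more, where 85 of 117 loops (72.6%) spanned under 20 kb. PET number chose the loops, so this order is a description with no test. The 30928 KO loops with 2 or more PETs had a median span of 65.2 kb in the deeper pool.

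**Figure D2:**
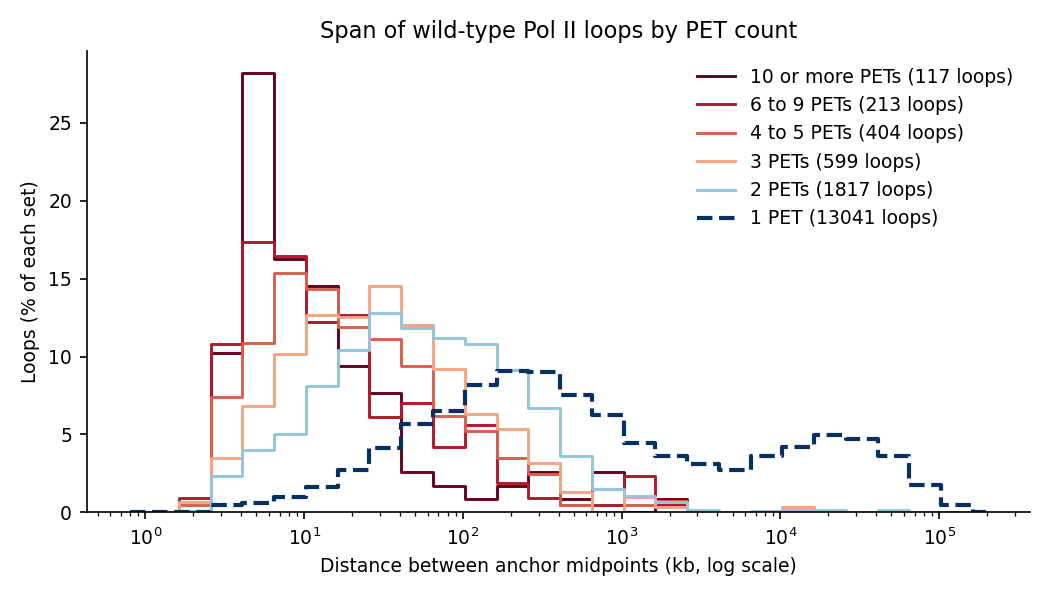
Share of loops (percent of each set) by distance between anchor midpoints (kb, log axis), with a line for each class of PET number. Loops of 10 or more PETs peak under 10 kb (median 7.71 kb), loops of 2 PETs lie farther right (53.0 kb) and loops of 1 PET (dashed, 420.8 kb) have a second rise at the far right.

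The 68 loops over 1 Mb split by gene family. Histone genes stood at both ends of 22 of them, and 17 of these 22 were found in the KO pool. Of the other 46 long loops, 7 were found in the KO pool. Several WT loops can match the same KO loop, so these found loops are not independent. The H2ac13 anchor, for example, met those of H2bc3, H1f2 and H1f1 with 16 PETs in the KO pool each time. Exactly 2 PETs were counted in 46 of the 68, and of the 12 with 4 or more PETs 6 joined histone genes. The others of these 12 were led by Zfp980 with Rex2, with 73 PETs in the KO pool and 8 in the WT pool. A chromosome 4 loop with no coding or lncRNA gene end had 9 and 7 PETs in the same order. With 0 PETs in the KO pool stood Rnaset2b with Rnaset2a (7 in the WT pool), Gm3173 with Gm3411 (6) and Pfkl with Cdc34 and Gzmm (4). A chromosome 12 loop with no such gene end also had 0 and 4. Where such genes are similar copies, reads can be placed on the wrong copy, as at the histone genes. Over 3 Mb lay 15 loops, 13 of them with 2 PETs. The longest, of 49.0 Mb with 2 PETs, had the ribosomal protein gene Rpl7 at 1 anchor.

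Annotated gene ends lay at both anchors of 2018 loops, or 64.1% (exact 95% binomial interval 62.4 to 65.7, for counting error only), where an end counts if it lies in an anchor or within 1 kb of it and the gene is coding or a lncRNA. For loops of 1 PET the share was 63.6% (62.8 to 64.4), within the counting error of the other. What differed was which ends met. Both ends of a single gene were joined in 342 of the loops with 2 or more PETs (10.9%), against 1.42% of loops of 1 PET, and ends of different genes in 1676 (53.2%), against 62.2%. A gene end lay at 1 anchor of 941 loops (29.9%), against 31.1%, and at neither anchor of 191 (6.06%), against 5.28%. The anchors overlapped a shared gene in 550 loops (17.5%), against 2.58% of loops of 1 PET. The 5′ ends of different genes met in 1156 loops (36.7%), against 39.4%. Only genes with a strand in the table used could count here, 2679 of the 3331 genes with an end at a loop of 2 or more PETs.

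The same classes were then compared within ranges of span. Under 20 kb, 25.4% of the loops with 2 or more PETs joined both ends of 1 gene, against 15.7% of the loops of 1 PET. Between 20 kb and 1 Mb the shares were 2.82% and 1.11%, and ends of different genes met in 64.0% of the loops with 2 or more PETs and in 63.9% of those of 1 PET. By PET number, both ends of a gene were joined in 5.72% of loops with 2 PETs and in 31.6% (23.3 to 40.9) of loops with 10 or more. No coding or lncRNA gene lay wholly between the anchors in 545 of the 1676 loops between different genes (32.5%), with a median of 2 such genes. For loops of 1 PET the share was 7.41% and the median 15 genes.

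**Figure D3:**
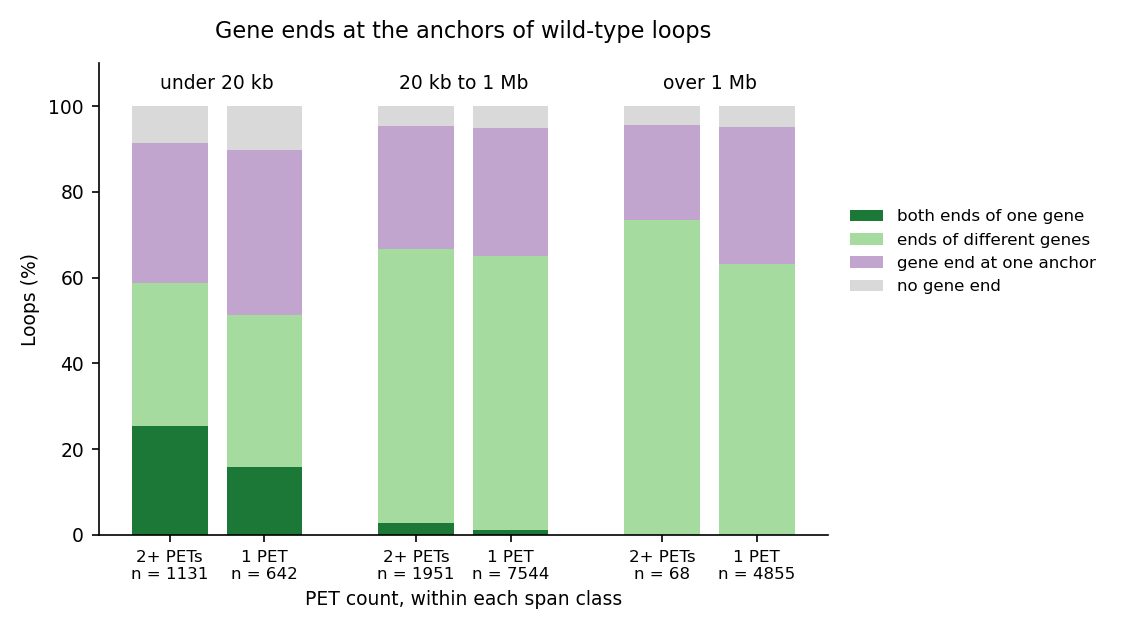
Share of loops (percent) by what lies at the anchors, in 3 span ranges, for loops of 2 or more PETs and of 1 PET. Loops that join both ends of 1 gene make up 25.4% of the short loops with 2 or more PETs and 15.7% of the short loops of 1 PET.

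Loops between the ends of a single gene lay at genes with high WT levels beside all joined genes. They covered 345 genes with a median length of 7.82 kb, against 12.2 kb for all 3331 genes with an end at a loop. The span of such a loop (median 8.33 kb) goes with the length of its gene, so short length is no separate result. The median WT level was 133 CPM, against 46.8 CPM for all joined genes. CPM is not divided by transcript length, since exon lengths were not used here, so single genes are not ranked by it. After Hnrnpab, Eif4a1 and Trim28 came Eif1, the start-codon selection factor, with 20 PETs, and Rpl27a and Srsf5 with 19 each, a ribosomal protein gene and a splicing factor gene. Rpl38, Rps19 and the nucleotide-sugar transporter gene Slc35b2 had 18 each, and Tmem107 and the glycolytic enolase gene Eno1 17 each. The actin gene Actg1 had 16, and the nucleolin gene Ncl 14. Of the genes with both ends joined, 326 were tested in KO against WT with edgeR and 21 called at an adjusted p under 0.05 (6.44%, with 8.3% over all genes). In KO 11 were higher and 10 lower, with 2.96% higher and 5.34% lower over all genes. Among the genes of the loops just named, Eno1 was called: it had 2819 and 2215 CPM in KO and 819 and 1137 CPM in WT. Both KO libraries stood above both WT libraries, with a log2 fold change of 1.36 (SE 0.31, edgeR adjusted p = 0.0324), and its loop had 19 PETs in the KO pool and 17 in the WT pool. The call was lost without KO B (adjusted p = 0.167) and without KO F (0.0656). In bulk RNA, fewer cells of a type and less RNA per cell cannot be told apart.

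The 3150 loops used 3401 of the 8373 WT anchors. These anchors had a median length of 2118 bp, against 1947 bp for the other 4972. An annotated 5′ end lay at 56.3% of them, against 60.1% of the other anchors, and a 3′ end without a 5′ end at 9.14%, against 3.86%. Gene bodies without an end made up 12.9%, against 14.4%, and sites between genes 10.0%, against 9.69%. The rest, 11.6% and 11.9%, had ends of genes with no strand in the table used. Joined into a network the loops made 906 separate groups, of which 509 were a single pair. Of the anchors, 2006 (59.0%) had 1 loop, 184 had 5 or more and 29 had 10 or more. The group with the most anchors, 44 anchors in 66 loops with 223 PETs, lay at chr3:88276042-96680770. Most of that range was spanned by a single loop of 7.09 Mb with 2 PETs, from Ssr2 and Ubqln4 to Mcl1.

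The anchors with the most loops were histone anchors. The one of H2ac7, H2ac8, H2bc7, H2bc8 and H3c4 (chr13:23568609-23577566) had 19 loops and 175 PETs, and 3 further histone anchors had 16 loops each. Outside the histone cluster the highest was the anchor of Hsp90ab1, a cytosolic chaperone gene, and Slc35b2 with 14 loops and 76 PETs, then that of Malat1 with 13, and those of 1110038B12Rik and of 1810009A15Rik with 5730408K05Rik, with 12 each. Anchors with 11 included those of Rpl23a, Rpl3, the cofilin gene Cfl1 and H3f3b, the gene of a replication-independent H3.3 histone. The chromosome 13 histone group at chr13:21361656-23765408 tied 28 anchors by 123 loops with 830 PETs. Chromosome 13 held 5.81% of the loops with 2 or more PETs and 2.72% of those of 1 PET. Chromosome 11 held the most loops, 434 or 13.8%, against 12.7% of loops of 1 PET and 7.35% of coding genes. Chromosome X held 0.635%, against 1.12% of loops of 1 PET and 4.41% of coding genes. E14 is a male line, and the part of X copy number in this share was not tested.

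Of 103 histone genes listed, 67 had an end at a loop anchor, in 167 loops. Histone genes stood at both anchors of 122 loops, 113 of them on chromosome 13, with a median span of 61.9 kb, a median of 4 PETs and 866 PETs in all. They made up 29 of the 117 loops with 10 or more PETs, and 94 of the 122 were found in the KO pool. Several WT loops can match the same KO loop, so these 94 are not independent. Their read counts were low: 66 matched the count table with a median WT level of 0.457 CPM, and 20 reached 1 CPM. The 6 above 20 CPM were H1f10, H2aj, H2ax, H2az1, H2az2 and H3f3b, variant or linker histone genes. Replication-dependent histone messages carry no poly(A) tail in dividing cells, and the sources used here do not say how RNA was selected for these libraries. The median log2 fold change of the 20 histone genes tested in KO against WT was -0.37, and 1 of them was called, with 8.3% called over all genes. H2ac10 had 3.34 and 2.01 CPM in KO and 0.212 and 0.325 CPM in WT, a log2 fold change of 3.25 (SE 0.69, edgeR adjusted p = 0.0276). The call was lost without WT 1 (adjusted p = 0.0557) and without KO B (0.152), and without WT 1 the test called 2 other histone genes, both lower in KO.

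Ribosomal protein genes formed the other large family, and few of its loops joined one member to another. Of 84 listed genes, 72 had an end at a loop anchor, in 271 loops with a median span of 42.6 kb, of which 63 had 5 or more PETs and 179 were found in the KO pool. Both ends of the same gene were joined for 34 of them, and of the 36 loops with a ribosomal protein gene at both anchors 3 joined different ones. Their WT level had a median of 1066 CPM (0.908 to 4368). By library the median was 984 CPM in KO B and 683 in KO F, and 736 in WT 1 and 1376 in WT 2. The KO and WT medians thus overlapped, and WT 2 stood above WT 1 in 70 of 72 genes. In edgeR 0 of 71 tested were called, with 8.3% called over all genes, and 3 had an unadjusted p under 0.05. DESeq2 called 0 and limma-voom 0. Their log2 fold changes were negative for 66 of 71, with a median of -0.38 against -0.0015 for all genes tested. Without WT 1 edgeR called some of them, all lower in KO, but it then also called a larger share of all genes.

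Loops at the pluripotency genes joined their ends or bodies to neighbouring genes and to sites with no gene end. The promoters of Nanog and Sox2 are printed because these loci carry the loops described next, a choice made after the values were seen. Capitals mark the same letters as above.
Nanog, chr6:122707239-122707538, plus strand: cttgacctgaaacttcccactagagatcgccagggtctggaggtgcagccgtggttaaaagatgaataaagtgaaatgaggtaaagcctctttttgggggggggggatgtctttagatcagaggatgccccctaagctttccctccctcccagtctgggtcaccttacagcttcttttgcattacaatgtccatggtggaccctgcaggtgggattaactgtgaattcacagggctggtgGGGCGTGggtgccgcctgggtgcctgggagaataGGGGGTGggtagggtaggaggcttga
Sox2, chr3:34649745-34650044, plus strand: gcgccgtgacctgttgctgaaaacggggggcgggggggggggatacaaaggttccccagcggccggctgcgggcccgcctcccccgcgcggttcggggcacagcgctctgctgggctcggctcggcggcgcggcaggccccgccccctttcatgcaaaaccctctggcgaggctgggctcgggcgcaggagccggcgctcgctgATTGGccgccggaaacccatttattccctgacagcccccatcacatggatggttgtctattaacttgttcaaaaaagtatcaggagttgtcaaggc
Nanog held the KLF core letters 2 times, and Sox2 held 1 CCAAT. Of 11 core pluripotency genes 7 had an end at a loop, in 20 loops, and of 28 genes on a naive list 14 did, in 31 loops. The naive list also holds genes that are not particular to the naive state, Dnmt3b and Lin28a among them.

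Nanog, the homeobox factor of the naive state, had 10 loops with 32 PETs, of which 7 were found in the KO pool. Its promoter anchor (chr6:122706676-122709151) met a site in the body of the glucose transporter gene Slc2a3 (chr6:122733979-122739990) at 29.1 kb, with 45 PETs in the KO pool and 7 in the WT pool. The Nanog 3′ anchor (chr6:122713926-122715824) met that site with 45 PETs in the KO pool and 5 in the WT pool. Both WT loops overlapped 2 KO loops each, so their KO numbers are not independent. An anchor 5.06 kb upstream (chr6:122702099-122703617) met the promoter by 0 PETs in the KO pool and 4 in the WT pool, with both anchors overlapped by 1 KO anchor. Nanog and Gdf3, a TGF-beta family ligand gene, met at 98.7 kb with 13 PETs in the KO pool and 3 in the WT pool. Sox2 (chr3:34648729-34655856) met a site with no gene end 104.9 kb away (chr3:34755498-34758812) with 36 PETs in the KO pool and 7 in the WT pool. Pou5f1 met Tcf19 at 9.14 kb with 28 and 5 PETs in the same order of pools. A second Pou5f1 anchor met Tcf19 at 5.555 kb with 28 and 3 PETs, so these KO numbers are not independent either. Esrrb had 9 loops with both anchors overlapping the gene (chr12:86361117-86521628), with 36 PETs and up to 9 in a loop.

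RNA of these genes showed no call. Nanog had 619 and 571 CPM in KO and 782 and 772 in WT (log2 fold change -0.39, SE 0.25, edgeR adjusted p = 0.387), and Sox2 had 550 and 561 CPM in KO and 533 and 462 in WT (0.16, SE 0.24, adjusted p = 0.74). Pou5f1 had 1754 and 1542 CPM in KO and 1193 and 2006 in WT, with overlapping groups, and Esrrb 601 and 580 in KO and 776 and 660 in WT. The KO libraries lay below the WT libraries for Nanog and Esrrb and above for Sox2, and none passed the threshold.

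Zfp42 (REX1), a marker of naive ES cells, had 3 loops, with 32, 0 and 32 PETs in the KO pool and 12, 10 and 4 in the WT pool. Both anchors of the loop with 0 were overlapped by 1 KO anchor, and contacts within a KO anchor are not listed as a loop. The 2 KO numbers of 32 are therefore not independent. Fgf4, the growth factor gene that primes ES cells for exit, had 5 loops with 18 PETs. Its own ends met at 4.26 kb with 13 PETs in the KO pool and 7 in the WT pool, and it met the cyclin gene Ccnd1 at 75.1 kb with 1 and 3. Dppa5a, an RNA-binding protein gene of pluripotent cells, met the anchor of Eef1a1 and Mto1 at 111.9 kb with 29 PETs in the KO pool and 4 in the WT pool. Mycn had its ends joined by 0 PETs in the KO pool and 3 in the WT pool, and no KO anchor was listed at either end. Slc2a3, next to Nanog, had 10 loops with 49 PETs, the highest of them with 30 PETs in the KO pool and 19 in the WT pool. Zfp42 had 584 and 816 CPM in KO and 563 and 569 in WT (edgeR adjusted p = 0.538). Fgf4 had 441 and 292 CPM in KO and 321 and 348 in WT, with overlapping groups (0.815).

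Other lists had from 0 to 53 loops. Of 17 formative-state genes 2 had an end at a loop (Cd24a and Etv5), with 0 calls by edgeR, 2 at an unadjusted p under 0.05 and 1 call by DESeq2. Of 22 early neural genes 0 did, and 0 of 39 HOX genes did. Loops of 1 PET only were listed for 5 of the formative genes and 1 of the early neural genes. Of 26 KLF and SP factor genes 9 did: Klf1, Klf10, Klf11, Klf13, Klf16, Klf4, Klf5, Klf9 and Sp1, in 13 loops, and 1 of 8 tested was called, Klf4 itself. Of 21 genes of loop architecture 6 did, among them Ldb1, Pds5a, Polr2a, Smc3 and Zfp143, with 0 calls by edgeR and 0 at an unadjusted p under 0.05. Of 17 immediate early genes 8 did, in 28 loops, and of the 8 tested 2 were higher (Egr1 and Ier3) and 1 lower (Btg2) in KO, with 2.96% higher and 5.34% lower over all genes; Ier3 was not called without KO B (edgeR adjusted p = 0.0981). Of 20 host genes of small nucleolar RNAs 14 did, in 53 loops, and 0 of 10 tested were called by edgeR, DESeq2 or limma-voom, with 2 at an unadjusted p under 0.05 in edgeR.

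Genes joined by the loops were expressed in WT cells. Of 3331 genes with an end at a loop (2884 coding and 447 lncRNA) 3070 matched the count table, and their median WT level was 46.8 CPM (44.3 in WT 1 and 48.8 in WT 2; middle 50% of genes 14.4 to 117). At least 1 CPM was reached by 91.8%. Genes with loops of 1 PET only had a median of 33.8 CPM, genes with no loop 0.160 CPM and all 25672 genes placed 1.50 CPM. At least 100 CPM was reached by 29.1% of joined genes and by 17.6% of genes with loops of 1 PET only, and at least 1000 CPM by 73 of the joined genes, against 10 and 0 of the genes with 1 PET only and with no loop. Both sides held a gene of at least 1 CPM in 1459 of 1602 loops between different genes (91.1%), against 93.7% for loops of 1 PET.

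**Figure D4:**
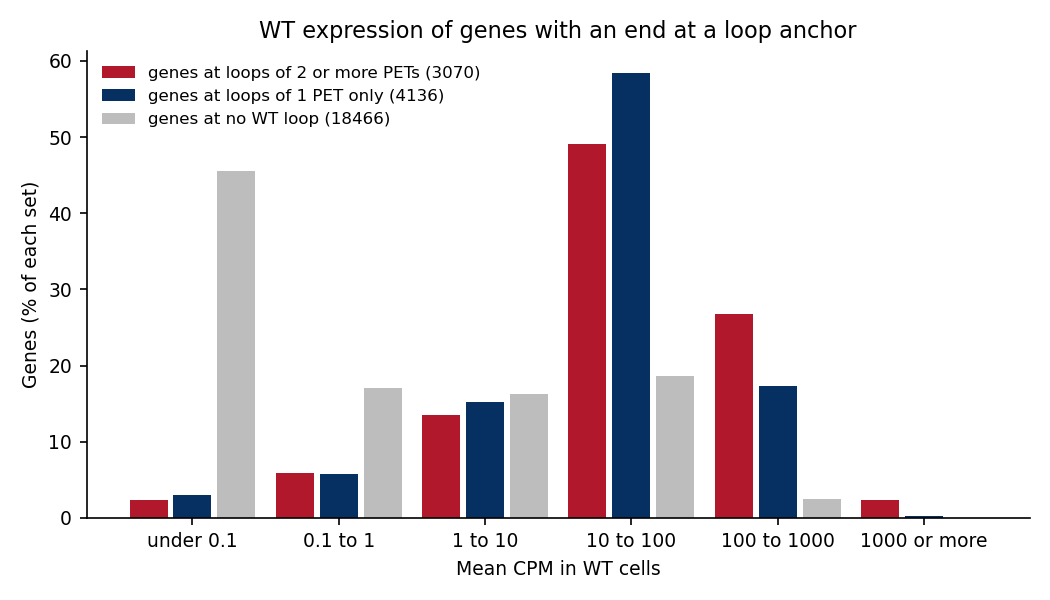
Share of genes (percent) by WT level in CPM, for genes with loops of 2 or more PETs, with loops of 1 PET only and with no loop. Joined genes centre on a median of 46.8 CPM, genes with loops of 1 PET only on 33.8 CPM and genes without loops on 0.160 CPM.

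Levels did not climb steadily with PET number. By its loop with the most PETs, a gene's median level was 42.4 CPM at 2 PETs, 47.3 at 3, 63.4 at 4 to 5, 75.1 at 6 to 9 and 44.1 at 10 or more. The histone genes sat in the last group: the 50 histone genes at loops of 10 or more PETs had a median of 0.351 CPM, and the other 144 genes there 108 CPM, of which 91.0% reached 1 CPM. By number of loops the median was 39.8 CPM for genes with 1 loop, 61.6 CPM for 2 to 4 and 66.6 CPM for 5 or more. Genes at loops over 1 Mb had a median of 23.6 CPM, and 75.0% of them reached 1 CPM.

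Of the 3150 loops, 1818 were found in the KO pool, with a KO loop over both anchors, or 57.7% (exact 95% binomial interval 56.0 to 59.4), against 26.2% (25.5 to 27.0) of loops of 1 PET. Span changed the contrast. Under 20 kb the share was 51.2%, against 49.7% for loops of 1 PET. Between 20 kb and 1 Mb it was 62.3%, against 38.7%, and over 1 Mb 35.3% (24.1 to 47.8), against 3.77%. By PET number it was 53.5% at 2 PETs, 63.3% at 3, 65.6% at 4 to 5, 62.9% at 6 to 9 and 57.3% at 10 or more. Loops between different genes were found most often (66.1%), then those with a gene end at 1 anchor (50.1%), those of 1 gene (47.4%) and those with none (40.8%). KO anchors were longer, with a median of 2932 bp against 1999 bp in WT, and this bears on short loops directly. A single KO anchor overlapped both WT anchors of 224 loops not found in the KO pool (7.11%). The same held for 39 of the 117 loops with 10 or more PETs (33.3%). Both anchors were listed without a loop between them for 341 loops (10.8%), 1 anchor for 693 (22.0%) and none for 74 (2.35%). Of the joined genes, 2954 (88.7%) also had an end at a KO loop with 2 or more PETs. Depth, peak calling and genotype cannot be told apart here, since each genotype has 1 pool.

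Klf4 itself checked the RNA labels: it had 0 and 0 counts in KO and 2882 and 2421 counts in WT (305 and 263 CPM). The RNA was at least 1595-fold lower in KO, against a floor of 3 counts over the group, with an edgeR adjusted p of 0.000191. Klf4 (ENSMUSG00000003032, chr4:55527137-55532475) had 2 loops in WT. Its own ends met at 6.37 kb with 0 PETs in the KO pool and 2 in the WT pool, and a site 67.9 kb away (chr4:55463311-55465747) met its promoter anchor (chr4:55531324-55533475) with 1 PET in the KO pool and 2 in the WT pool.

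A smaller share of the joined genes than of all genes was called between genotypes. Of 2821 joined genes tested, edgeR called 149 at a false discovery rate of 0.05, or 5.28%, with 8.3% called over all 15517 genes. Higher in KO were 68 (2.41%, background 2.96%) and lower 81 (2.87%, background 5.34%). The median log2 fold change was -0.0054, against -0.0015 for all genes. Called shares were 6.28% for genes with loops of 1 PET only (237 of 3773) and 11.6% for genes with no loop (806 of 6933). Without WT 1 the test called 395 of the joined genes (13.8%, with 15.5% over all genes), without KO B 83 and without KO F 98, and with no filter on low counts 0 (517 at an unadjusted p under 0.05). The labels call the libraries biological replicates but do not say that they came from separate cultures, so p-values measure the spread between these libraries, which may be technical. Summed early neural markers were lower in KO, at 13.1 to 19.5 CPM against 34.1 to 38.0 CPM in WT, and their part in these calls was not tested.

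Genes higher in KO included signalling and metabolic genes. Egr1, an immediate early zinc-finger factor, had 6.33 and 22.2 CPM in KO and 0.318 and 0.217 in WT, the largest increase of the joined genes under the naming rule (log2 fold change 5.66, SE 0.81, edgeR adjusted p = 0.00756). Spry4, an inhibitor of receptor tyrosine kinase signalling, had 43.0 and 106 CPM in KO and 3.39 and 2.39 in WT (4.68, SE 0.51, adjusted p = 0.00321). Slc16a3, a lactate exporter, had 140 and 117 CPM in KO and 5.19 and 8.35 in WT, and Slc2a1, a glucose transporter, 677 and 531 in KO and 131 and 134 in WT. Both sets of libraries stayed apart in each gene, by a log2 fold change of 4.25 for Slc16a3 (adjusted p = 0.00117) and 2.19 for Slc2a1 (adjusted p = 0.00386). Utf1, a chromatin factor of ES cells, had 368 and 368 CPM in KO and 52.2 and 89.1 in WT (2.38), and Lin28a, which blocks let-7 maturation, 243 and 247 in KO and 62.5 and 58.4 in WT (2.02). The muscle actinin gene Actn3 (3.25), the neuronal RNA-binding gene Elavl3 (2.71), the neurofilament gene Ina (2.06) and the bHLH factor gene Tcf15 (2.05) made up the rest of the 10 named. Elavl3 had 18.9 and 5.20 CPM in KO and 1.59 and 2.06 in WT, and lost its call without KO B (edgeR adjusted p = 0.232) and with limma-voom (0.0891).

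Genes lower in KO, after Klf4, were led by Cdo1, a cysteine dioxygenase, with 5.38 and 4.61 CPM in KO and 56.4 and 61.8 in WT (log2 fold change -3.56, SE 0.30, edgeR adjusted p = 0.00149). The brain creatine kinase gene Ckb had 160 and 82.9 CPM in KO and 714 and 1255 in WT (-3.02), and the mitochondrial creatine kinase gene Ckmt1 15.6 and 4.02 in KO and 50.7 and 76.0 in WT (-2.69). A4galt, a glycosphingolipid synthase, had 8.36 and 8.62 CPM in KO and 40.9 and 56.6 in WT (-2.52). Il17rc (-2.42), Zfhx2 (-2.36), Comtd1 (-2.27), Cyba (-2.20) and Ndst2 (-2.16) completed the 10. They encode a cytokine receptor, a homeobox protein, a methyltransferase-like protein, an NADPH oxidase subunit and a heparan sulfate sulfotransferase. KO and WT libraries did not overlap in any of the 20 genes, which the naming rule required.

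Genes of the naive list moved both ways, 4 higher and 4 lower of 14 tested, with 2.96% higher and 5.34% lower over all genes. Since the list holds genes not particular to the naive state, Dnmt3b and Lin28a among them, this is not a split of naive-state genes. Dnmt3b (224 and 229 CPM in KO, 76.3 and 56.3 in WT), Lin28a, Mycn (170 and 167 in KO, 68.8 and 57.5 in WT) and Utf1 rose, and Fbxo15 (130 and 108 in KO, 232 and 243 in WT), Gdf3 (48.3 and 48.4 in KO, 96.3 and 117 in WT), Jam2 (93.3 and 159 in KO, 398 and 398 in WT) and Tdh (135 and 132 in KO, 437 and 551 in WT) fell. Dnmt3b encodes a de novo DNA methyltransferase and Tdh the threonine dehydrogenase of mouse ES cells. DESeq2 called 10 of the list and limma-voom 8. Without KO B the edgeR calls of Jam2 (adjusted p = 0.123), Gdf3 (0.189) and Fbxo15 (0.197) were lost, and without KO F those of Gdf3 (0.201) and Fbxo15 (0.447). Neat1, at the loop with the most PETs, had 100 and 116 CPM in KO and 288 and 322 in WT (log2 fold change -1.49, SE 0.24, edgeR adjusted p = 0.0106, and 0.0950 without KO B). Malat1, at its other end, had 728 and 834 CPM in KO and 992 and 406 in WT, with overlapping groups (0.16, SE 0.40, adjusted p = 0.844).

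**Figure D5:**
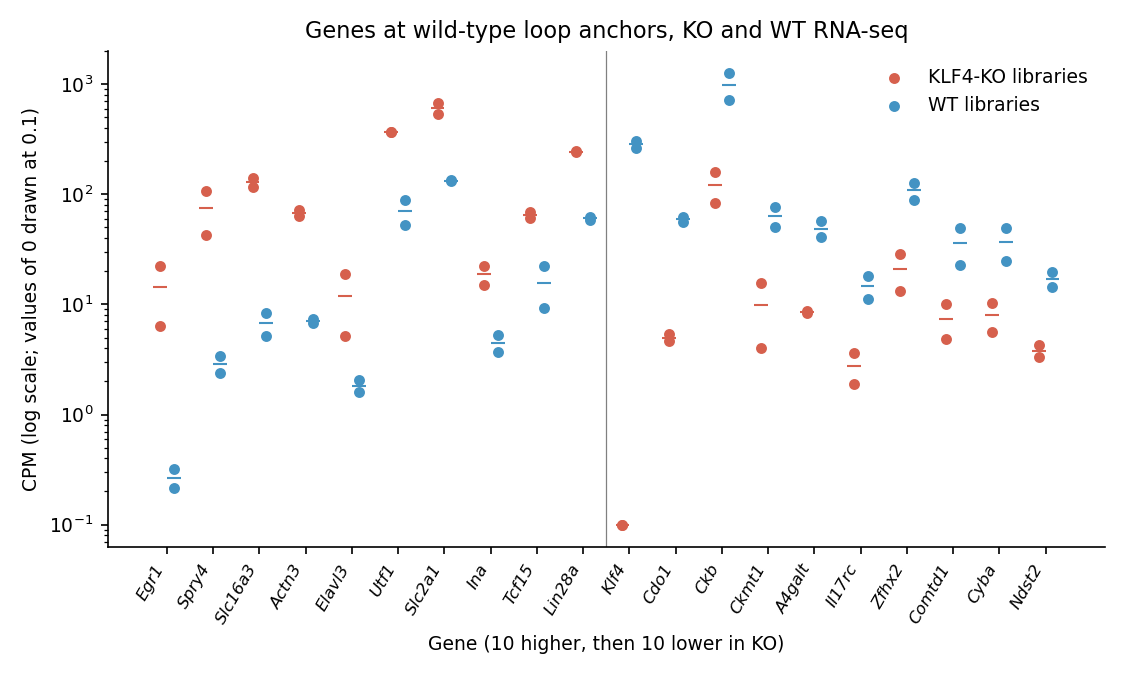
RNA level (CPM, log axis) of the named genes in each KO and each WT library. Points are libraries, dashes group means, and counts of 0 are drawn at 0.1 CPM. Egr1, Spry4 and Slc16a3 stand higher in both KO libraries, Cdo1 and Ckb lower, and Klf4 had 0 counts in KO.

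The loops of these 20 genes were mostly near the threshold. They had 26 loops, of which 20 had 2 PETs and 9 were found in the KO pool, and 15 of the genes had a single loop. Slc2a1 met the lncRNA gene Gm35510 at 35.4 kb with 16 PETs in the KO pool and 5 in the WT pool, the most of these genes. Spry4 had a loop inside the gene with 0 PETs in the KO pool and 4 in the WT pool, and no KO anchor was listed at either site. Egr1 met the anchor of Matr3 and Snhg4 at 696.5 kb with 0 and 2 PETs, and Ckb met Eif5 at 125.4 kb with 0 and 2. Found in the KO pool were 58.4% (exact 95% binomial interval 50.0 to 66.4) of the 149 loops with a gene higher in KO, 53.4% (44.5 to 62.1) of the 133 loops with a gene lower in KO and 59.0% (57.0 to 60.9) of the 2574 loops whose tested genes were not called. These intervals overlap.

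Few loops between different genes had calls at both sides. Of 1459 such loops with a tested gene at both sides, 149 (10.2%) had a called gene at 1 side, and 5 pairs had a called gene at both. With 5.28% of single joined genes called, no relation between the sides is read from these counts. Rundc3a and Grn were both lower, and so were Cstb and Pdxk. The other 3 pairs went opposite ways, among them Gli1 higher and Ddit3 lower at 38.9 kb, and Ccne1 higher and Plekhf1 lower at 121.2 kb. Gli1 is a target of hedgehog signalling, and Ccne1 encodes cyclin E. All 5 pairs had 0 PETs in the KO pool and 2 in the WT pool. In each of the 4 pairs named at least 1 call was lost when a library was left out. Without KO F the calls of Rundc3a (edgeR adjusted p = 0.295), Grn (0.188), Cstb (0.179), Ddit3 (0.200) and Plekhf1 (0.135) were lost. Lost without KO B were those of Pdxk (0.0831) and Plekhf1 (0.164), and without WT 2 those of Plekhf1 (0.0874) and Rundc3a (0.0630). Rundc3a stood at the threshold (0.0497) and also lost its call with RLE scaling, library totals, a filter at 1 CPM and limma-voom (0.0513 to 0.0538).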

How the data were processed

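The submitters' processing notes name the mm10 build, HiC-Pro 2.11.4, HISAT2 2.1.0, DESeq2 1.18.1 and HTSeq 0.9.1. The authors deposited whole-number counts of reads per Ensembl gene for each RNA-seq library, not normalised, and whole-number counts of PETs per pair of anchors, in 1 pooled list per genotype. No source used here gives the loop caller, its filters, the annotation release or the strand setting of the gene counts, so overlapping genes on opposite strands may share reads. WT columns have replicate numbers that match the labels, and KO columns have the letters B and F, which match a genotype but no replicate number. Other columns of sample values in these files came to 0.

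Loops were rows with different anchors. Span is the distance between anchor midpoints, in ranges under 20 kb, 20 kb to 1 Mb and over 1 Mb, and intervals on shares are exact 95% binomial intervals that cover counting error only. Gene positions and promoters came from RefSeq (GRCm38.p6, the assembly of mm10). Of 3331 coding or lncRNA genes with an end within 1 kb of a loop anchor, 3070 matched the count table, 96 of them by an older symbol. A WT loop counted as found in KO where a KO loop overlapped both anchors, so several WT loops can match the same KO loop.

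CPM is counts over the TMM-scaled library size. KO was tested against WT with edgeR 4.0.16 in R 4.3.3 (filterByExpr, quasi-likelihood test, genotype as sole term, 2 residual degrees of freedom) on 15517 of 52636 genes, with Benjamini-Hochberg adjustment and a threshold of 0.05, after a test on simulated counts. DESeq2 1.42.0 and limma 3.58.1 were alternatives. Records of reads in no gene (37.2% to 40.5% of each file) and with several alignments (17.5% to 18.9%) were left out of library sizes. Loops were handled with Python 3.11.15, pandas 2.3.3 and networkx 3.6.1, and figures drawn with matplotlib 3.10.9.

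Named loops are the 15 with the most PETs, with the shorter first among equals. Named genes are Klf4, list members with an end at a loop, and the 10 higher and 10 lower in KO by log2 fold change among joined genes past the threshold whose groups do not overlap and whose mean reaches 2 CPM, without predicted genes, Rik clones and pseudogenes. Promoters are those of up to 6 genes with a strand listed whose 5′ ends were joined by the loops with the most PETs. Genes named beyond this rule (Eno1, H2ac10, Slc2a3, the genes of loops joining 1 gene and the called pairs) were chosen after their values were seen. Some genes are not reported here. The loops and the gene lists were chosen with earlier results of these data known.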

Additional observations from a re-analysis of the deposited data

How the results depend on the processing

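The span, the gene-end share, the expression level and the share found in the KO pool rest on 1 pooled list per genotype, so counting error is the sole error given, and the KO pool's greater depth limits any reading of a WT loop as lost or kept. A minimum of 3 PETs gave a median span of 18.9 kb (34.3 kb as reported), a median WT level of 53.7 CPM (46.8 as reported) and 63.4% found in KO (57.7% as reported). Gene ends lay at both anchors of 56.6% of loops where the end had to lie inside the anchor, of 80.0% with ends within 5 kb and of 68.4% with genes of every biotype, against 64.1%; the last was added after seeing the data. With ends within 5 kb the median level was 41.5 CPM. The share found in KO was 71.1% with KO anchors within 5 kb, 49.3% with KO loops of 2 or more PETs and 17.4% where anchors had to overlap reciprocally by 50%. Leaving out loops between histone genes gave a median span of 33.6 kb, and leaving out histone genes a median of 48.5 CPM, both also added after seeing the data.

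Calls among joined genes were 149 and moved to 234 with DESeq2 (8.13% of 2878 genes with an adjusted p, with 9.62% over all genes), to 0 with no filter on low counts, where 2 genes were called over all, and to between 83 and 395 when 1 library was left out. They were 131 to 149 with other scalings, a filter at 1 CPM or limma-voom. A test with a lone library in a group assumes that it varies like the other group's pair. Of 41 genes given as called in KO against WT, 0 turned their direction in the 10 alternatives of the test, and 41 lost the call with no filter, 11 without KO B, 9 without KO F and 0 with DESeq2; the cause was not tested. No paired analysis was possible because the KO columns carry letters in place of the replicate numbers of the labels.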

Other observations

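Loops at the naive-list genes called in KO against WT had 2 to 4 PETs each in the WT pool. Mycn, which encodes N-MYC, met a site 152.7 kb away with 0 PETs in the KO pool and 3 in the WT pool, and no KO anchor was listed at either site. Lin28a met a site 118.6 kb away with 0 PETs in the KO pool and 3 in the WT pool, and there both anchors were listed in KO without a loop between them. Dnmt3b and Commd7 met at 17.5 kb with 2 PETs in the KO pool and 3 in the WT pool. Utf1 and the anchor of Rplp2 and Pidd1 met at 1.50 Mb with 1 PET in the KO pool and 2 in the WT pool. Jam2, a junctional adhesion molecule gene, had 3 loops, 1 of them with 23 PETs in the KO pool and 3 in the WT pool. Gdf3 had 6 loops with 17 PETs in the WT pool.

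Read pairs with both ends in the same anchor, which are no loops, were listed at 53.0% of the 3401 anchors of loops with 2 or more PETs and at 38.6% of the other 4972 anchors.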
